A study of Homo sapiens with 49 samples.

Results

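The Ishikawa-only distal H3K4me1 regions were 8220 of the 28411 H3K4me1 peaks called in vehicle-treated Ishikawa cells, or 28.9% of that list and 47.9% of its 17162 peaks away from H3K4me3. A peak was kept if it overlapped by at least 1 bp a peak of the estradiol-treated Ishikawa H3K4me1 list. It was dropped if it overlapped either T-47D H3K4me1 list or any of the 4 H3K4me3 lists. The members were thus chosen by measured values, the presence of H3K4me1 and H3K4me3 peaks in these lists. All kept peaks lay on chromosomes 1 to 22 and X. Ishikawa is a line of endometrial adenocarcinoma and T-47D a line of breast carcinoma, and both carry the estrogen receptor. In this study of the estrogen response both lines were held for days in hormone-depleted medium and then given 17β-estradiol (E2) at 10 nM or the vehicle DMSO. Histone marks were mapped by ChIP-seq after 8 h and DNA-bound proteins after 1 h, while SIN3A was compared between charcoal-stripped and full medium. Each of these lists came from a single library of the line, so no difference between treatments or lines could be tested against replicates. Exact (Clopper-Pearson) 95% intervals are given for shares of regions, and they cover counting error only. The lists hold 528044 peaks in all.

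H3K4me1, a single methyl group on lysine 4 of histone H3, is laid down by the MLL3 and MLL4 methyltransferases and marks enhancers and the flanks of promoters, whereas H3K4me3 marks promoters themselves. Enhancers differ more between cell types than promoters do, since they carry the binding sites of the transcription factors that each cell type expresses. LSD1, also called KDM1A, is a demethylase that removes methyl groups from lysine 4 and works in the CoREST complex. JUN is a subunit of AP-1, SIN3A is a scaffold of histone deacetylase complexes, RARA is a receptor for retinoic acid, and MAX is the shared partner of the MYC and MXD factors.

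The T-47D lists were shorter, which bears on what "Ishikawa-only" can mean here. The T-47D H3K4me1 lists held 6408 peaks with DMSO and 1960 with E2, against 28411 and 22553 in Ishikawa cells. Their median fold enrichment, the ratio of ChIP pileup to background at the summit, was 6.98 and 5.91, against 8.93 and 8.88. The mirrored rule gave 689 T-47D-only regions. When each Ishikawa list was shortened to the length of its T-47D counterpart, 155 distal peaks remained in both Ishikawa lists and 134 of them were Ishikawa-only. Of the distal peaks shared by both Ishikawa lists, 5.05% then also lay in T-47D with full lists and 13.5% with shortened ones. How many of the 8220 regions lack the mark in T-47D and how many were missed by the shorter lists cannot be told apart from these lists.

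Regions just inside and outside the rule were close to each other. The smallest overlap with an E2 peak that kept a region was 1 bp (chr1:206868099-206868390). The nearest T-47D H3K4me1 peak that did not exclude a region was 4 bp away, and the smallest overlap that did was 3 bp. An overlap of 1 bp with H3K4me3 excluded a peak, and a kept region on chromosome 10 (chr10:72269195-72269507) abutted an H3K4me3 peak. Such closeness was common for H3K4me3 and uncommon for T-47D H3K4me1, since 2475 regions lay under 1 kb from an H3K4me3 peak and 396 under 1 kb from a T-47D H3K4me1 peak. The median distance was 4.30 kb to H3K4me3 and 94.4 kb to T-47D H3K4me1. "Distal" therefore means only that no H3K4me3 peak was overlapped, and 30.1% of the regions lay beside one.

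Sequences of 6 regions are shown because their protein peaks ranked highest or were the most numerous, or because their H3K4me1 was among the strongest. Each window is 200 bp of the plus strand of GRCh37, the build of the peak lists, and is centred on a protein summit. The centre is the E2 JUN summit in the first 5 sequences and the E2 MAX summit in the last. Capitals mark matches, on either strand, to the AP-1 site TGACTCA, the TEAD site CATTCC, the nuclear receptor core motif AGGTCA and the E-box CACGTG. In 200 bp windows at the summits of all 28411 peaks of the list these letters were found in 5.23%, 14.7%, 15.7% and 4.84% of windows. Not every region chosen in these ways held a match. The E2 JUN windows of chr11:112192801-112193045 and chr17:39195558-39196352, described below, held none of these letters and are not printed.
chr15:67175812-67176011: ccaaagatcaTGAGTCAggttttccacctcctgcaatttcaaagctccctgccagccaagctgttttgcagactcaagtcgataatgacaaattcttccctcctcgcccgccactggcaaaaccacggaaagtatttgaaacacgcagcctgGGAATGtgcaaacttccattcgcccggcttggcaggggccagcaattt
chr22:25884336-25884535: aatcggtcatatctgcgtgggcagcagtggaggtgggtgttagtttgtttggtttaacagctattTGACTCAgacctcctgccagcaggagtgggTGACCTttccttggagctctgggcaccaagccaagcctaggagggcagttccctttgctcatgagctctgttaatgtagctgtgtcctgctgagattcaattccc
chr12:50641053-50641252: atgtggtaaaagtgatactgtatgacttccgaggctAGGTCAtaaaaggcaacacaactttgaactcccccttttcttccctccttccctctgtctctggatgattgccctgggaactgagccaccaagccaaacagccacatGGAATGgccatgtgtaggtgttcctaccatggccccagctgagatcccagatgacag
chr10:80938651-80938850: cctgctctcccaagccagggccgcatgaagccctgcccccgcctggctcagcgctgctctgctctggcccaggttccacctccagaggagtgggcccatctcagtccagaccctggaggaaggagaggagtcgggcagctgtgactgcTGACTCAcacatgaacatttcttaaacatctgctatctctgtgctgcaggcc
chr2:15782469-15782668: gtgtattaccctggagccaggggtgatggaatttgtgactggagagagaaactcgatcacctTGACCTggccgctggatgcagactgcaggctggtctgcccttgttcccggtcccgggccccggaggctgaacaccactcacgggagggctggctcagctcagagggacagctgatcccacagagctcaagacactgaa
chr22:39631269-39631468: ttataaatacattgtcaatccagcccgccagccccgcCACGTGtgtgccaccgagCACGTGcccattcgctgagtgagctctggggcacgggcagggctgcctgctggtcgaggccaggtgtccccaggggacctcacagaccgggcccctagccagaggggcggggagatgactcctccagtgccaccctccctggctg
The first window, about 172 kb downstream of the nearest SMAD6 start site, carries an AP-1 match 87 bp before and a TEAD match 55 bp after the summit. The second, in an intron of a lncRNA gene 75.7 kb upstream of GRK3, carries AP-1 32 bp before the summit and AGGTCA 2 bp before it. The third lies in an intron of LIMA1, an actin-binding protein, and the fourth in an intron of ZMIZ1, with AP-1 51 bp after the summit. The fifth is intergenic, downstream of DDX1, with AGGTCA 35 bp before the summit. In the first and the fifth the JUN summit lay beyond the edge of the H3K4me1 region, although the JUN peak overlapped it. The last, in an intron of PDGFB, a growth factor for mesenchymal cells, carries 2 E-boxes, 60 and 42 bp before the MAX summit.

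The regions were short peaks whose H3K4me1 enrichment had nearly the same median in both treatments. Their median width was 344 bp (187 to 2445 bp) and they covered 3.37 Mb in all. H3K4me1 fold enrichment ran from 3.68 to 25.2 with DMSO, with a median of 9.10, and from 3.63 to 29.4 with E2, with a median of 8.91. The log2 ratio of E2 to DMSO enrichment had a median of -0.05, with 25% of regions below -0.30 and 25% above 0.20. These values chose the members and are given as a description. Distal peaks found in the DMSO list alone, which the rule left out, were narrower (median 243 bp) and weaker (median 8.25), whereas the 437 distal regions found in both lines had a median width of 409 bp and a median enrichment of 9.20.

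The 5 regions with the highest H3K4me1, ranked by the lower of their DMSO and E2 fold enrichments, had both values between 17.1 and 23.4, and 4 of them are described. The highest lay 1.35 kb downstream of KRTAP1-1, a hair keratin-associated protein gene (chr17:39195558-39196352), at 17.9 with DMSO and 22 with E2. The ZMIZ1 intron, the widest of all members (chr10:80937660-80940104), was at 17.2 and 23.4. With E2 the first carried JUN and the ZMIZ1 region both JUN and LSD1. Those 512 kb downstream of RPS24 (chr10:80307543-80308318, 17.2 and 18.3) and 17.3 kb upstream of KRT80 (chr12:52603085-52603569, 17.1 and 23.1), held no peak of the 5 proteins.

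Introns of protein-coding genes held 4099 of the 8220 regions, or 49.9% (interval 48.8 to 51%). A further 28.9% were intergenic, 9.65% lay in introns of lncRNA genes and 5.02% within 250 bp of a start site despite the absence of H3K4me3. The median distance to a protein-coding start site was 20.7 kb, shorter than the 26.6 kb of peaks in the DMSO list alone and longer than the 15.1 kb of regions in both lines. Only 6.35% were under 1 kb from such a start site, and 15.4% were 100 kb or more away. Counting start sites of any gene type, 1350 regions (16.4%) were under 1 kb away. Placement was thus mostly intronic and away from start sites, and the share in introns differed little from that of all distal peaks (49.6%, interval 48.8 to 50.3%).

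The 8220 regions were unevenly spread over genes. By distance to the closest start site they were assigned to 3474 of 19748 protein-coding genes (17.6%). Of these genes 1859 had a single region, 381 had 5 or more, and the 381 held 3172 regions, or 38.6% of all. Genes with wide intergenic space on either side collect more regions by this rule, so the length of sequence nearest to each gene is given beside its count.

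ZMIZ1, a PIAS-like coregulator of nuclear receptors, had the most regions. Its 60 regions stood in 0.656 Mb, 91.5 per Mb against 2.71 per Mb over the genome, from 3.85 to 508 kb from a start site. Their fold enrichment ran from 6.02 to 19.8 with DMSO and from 4.95 to 29.4 with E2. JUN peaks lay at 15 of the 60 and LSD1 peaks at 16. A further 6 distal regions at ZMIZ1 were found in both lines, beside 437 such regions and 8220 members over all genes.

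HS6ST1, which adds sulfate to heparan sulfate chains, had 35 regions, of which 12 held JUN and 5 held LSD1. TNS3, a tensin of focal adhesions, had 33, with JUN at 3 and LSD1 at 5. HMGA2, an architectural protein of chromatin, had 31 regions in 0.401 Mb, and JUN was at 6 of them. At the corepressor subunit gene TBL1XR1 the 29 regions lay far out, the nearest at 35.6 kb and the median at 225 kb. SMAD7, an inhibitor of TGF-beta signalling, had 26 regions in 0.280 Mb, or 92.9 per Mb, with JUN at 10 and LSD1 at 8. No distal region nearest to HS6ST1, HMGA2, SMAD7, PALLD or XXYLT1 was found in both lines, as far as the shorter T-47D lists can show. Over all genes only 5.05% of the distal peaks shared by both Ishikawa lists also lay in T-47D. PALLD, an actin-bundling protein, and XXYLT1, a xylosyltransferase acting on Notch repeats, had 25 each, of which 24 and 20 lay in introns. NTMT1, an N-terminal protein methyltransferase, had 24, none closer than 37.6 kb, and the highest density of these genes, 101 per Mb. These genes had many distal peaks in general. Counting every distal peak, ZMIZ1 had 79, HMGA2 72, TBL1XR1 59, TNS3 58 and HS6ST1 49. PALLD had 41, SMAD7 37, NTMT1 33 and XXYLT1 31. Over all genes members were 47.9% of distal peaks.

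**Figure D1:**
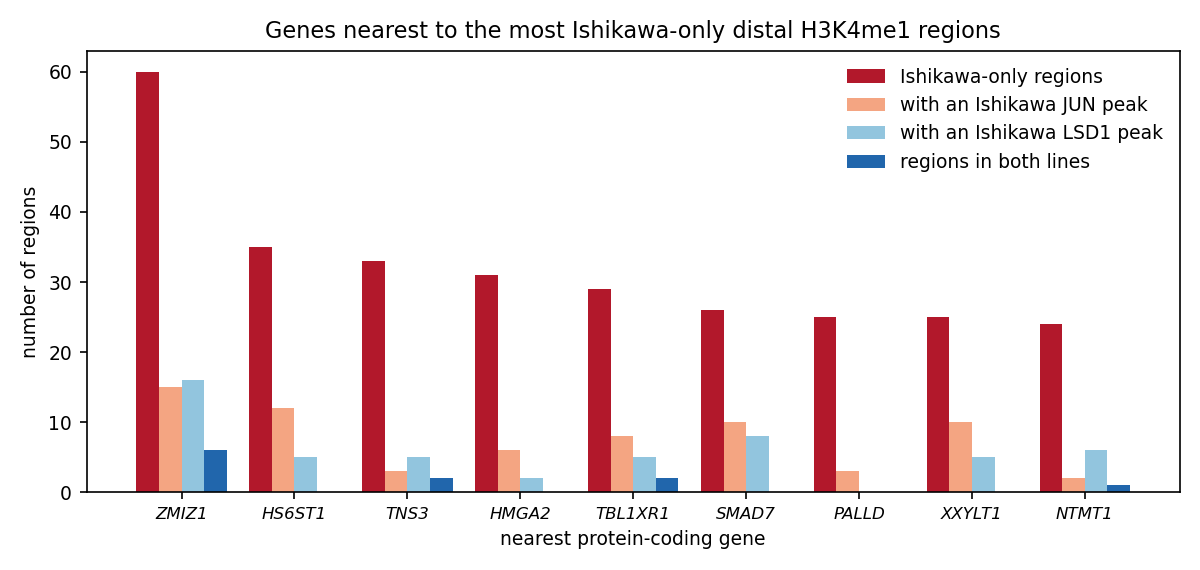
Number of distal H3K4me1 regions (vertical axis) nearest to 9 of the 10 genes with the most Ishikawa-only regions (horizontal axis). Red bars count the Ishikawa-only regions, orange and light blue bars those of them with an Ishikawa JUN or LSD1 peak in either treatment, and dark blue bars the distal regions found in both lines. ZMIZ1 stands out with 60 regions, and no gene shown has more than 6 regions in both lines.

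Members also lay close to each other. When members under about 13 kb apart were joined, 42.1% stayed alone, 193 groups had 5 or more and those held 15.3% of all regions. The largest group was inside PALLD (chr4:169528947-169589574), with 18 regions in 60.6 kb and fold enrichments from 7.66 to 16.4 with DMSO and from 6.44 to 14.2 with E2. JUN was at 1 of the 18, and LSD1, SIN3A, RARA and MAX were at none. The second group covered the keratin gene KRT80 (chr12:52566065-52604952), with 15 regions in 38.9 kb, and JUN was at 9 and LSD1 at 5 of them. The third spanned PAX8 and PSD4 (chr2:113957788-113999234), with 12 regions whose median enrichment was 7.53 with DMSO and 7.15 with E2. PAX8 is a transcription factor of the Müllerian tract and of most endometrial carcinomas, and PSD4 activates ARF6. The 3 largest groups thus ranged from almost no JUN at PALLD to JUN at most regions of KRT80.

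H3K4me3 at the start sites of marker genes matched the labelled lines in part. Of 4 epithelial markers all had H3K4me3 in both Ishikawa lists and 3 in T-47D. Of 6 Müllerian markers 5 had it in Ishikawa (PAX8, EMX2, HOXA10, HOXA11 and MSX1) and 0 in T-47D. Luminal breast markers were covered for 4 of 6 genes in Ishikawa and 6 of 6 in T-47D. None of 4 leukocyte markers had it in either line, and of 4 fibroblast markers only COL1A1 did, in both.

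Endometrial and Müllerian transcription factors had a region nearest at 9 of 24 genes, or 37.5%, above the 17.6% of all protein-coding genes. PAX8 had 13 regions between 0.122 and 16.9 kb from its start sites. ESR1, the estrogen receptor alpha gene, had 7, all intronic. LHX1, a homeobox gene of the kidney and female tract, had 3 and EMX2 had 2. A similar share, 8 of 19 or 42.1%, was found for luminal breast factors, among them ESR1 with 7 regions, ZNF703 with 6, ELF3 with 3 and ELF5 with 2. Per Mb of nearest sequence the order differed, with 3.53 regions for the Müllerian list and 2.22 for the luminal list against 2.71 over the genome.

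Cell adhesion and integrin genes had the highest share, 20 of 25 or 80.0%. After TNS3 with 33 regions came TNS4 with 7 and the integrins ITGB3 and ITGB6 with 5 each. The TGF-beta and BMP list had 12 of 24 genes, led by the inhibitors SMAD7 with 26 and SMAD6 with 13, then the receptor gene TGFBR2 with 4. Hippo pathway targets reached 10 of 20. Among them AMOTL2, an angiomotin that binds YAP, had 11 regions and 6 more in both lines, IGFBP3 had 9, ARHGEF17 had 8 and ANKRD1 had 6. Both inhibitory SMAD genes and several YAP target genes were therefore among the genes with many regions. Per Mb of nearest sequence the adhesion, TGF-beta and Hippo lists had 9.82, 6.81 and 8.74 regions. Cytosolic ribosomal proteins had 9.39, and the list of LSD1, SIN3A and MAX partners had the most, 10.5.

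Of the WNT pathway 13 of 31 genes (41.9%) had a region. WNT7B, a ligand of uterine epithelium, had 7, the coreceptor LRP5 had 5 and ZNRF3, which removes the receptors, had 5. Retinoid genes had 6 of 19 (31.6%), with 12 regions at ALDH1A2, which makes retinoic acid, 6 at the receptor partner RXRA and 5 at the retinol transporter STRA6. Of the AP-1 subunits 5 of 12 had a region (41.7%). These were FOS with 3, ATF3 and JDP2 with 2 each, and FOSL2 and JUN with 1 each. Genes of LSD1, SIN3A and MAX partners had 10 of 21 (47.6%), led by MYC with 17 regions from 21.9 to 800.0 kb away. The EGF receptor family and its ligands had 3 of 13 (23.1%) and cytosolic ribosomal proteins, broadly expressed genes, 4 of 24 (16.7%). By share of genes every list except the ribosomal one stood above the 17.6% of all genes. By regions per Mb the ribosomal genes, which lie in gene-dense sequence, were above the genome at 9.39, and the EGF receptor list was below it at 1.69. The shares therefore describe these lists and depend on how much sequence lies nearest to each gene.

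Estrogen-responsive genes had a region at 12 of 25 (48.0%), with MYC at 17, TGFA at 6 and STC2 at 2. GREB1 had 1 region, while PEG10, TFF1 and PGR had 0.

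TGFA encodes transforming growth factor alpha, a ligand of the EGF receptor (chr2:70674416-70781325, minus strand). Its 6 regions had H3K4me1 enrichments of 7.45 to 14.1 with DMSO and 4.76 to 14.3 with E2. The nearest was 1.30 kb upstream of a start site (chr2:70782406-70782632) and the farthest 43.0 kb inside the gene (chr2:70737361-70737649). None of the 6 held a peak of JUN, LSD1, SIN3A, RARA, MAX or TAF1. The rule itself required H3K4me1 in both treatments. Of all members 74.1% likewise held no peak of JUN, LSD1, SIN3A, RARA or MAX, beside 79.4% of all distal peaks.

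Proteins were found at a minority of the regions. Of the 8220 regions 74.1% held no peak of JUN, LSD1, SIN3A, RARA or MAX in any condition, 13.9% held 1 of the 5, 8.67% held 2 and 2.68% held 3. Only 47 held 4, and 5 held all 5. Among all 17162 distal peaks 79.4% held none. Wider regions held peaks more often: JUN with E2 was at 11.3% of the 2030 regions up to 251 bp wide and at 28.1% of the 2062 regions of at least 495 bp. In windows of fixed 500 bp around region centres the share was 19.5% (18.7 to 20.4%) for members and 13.1% (12.4 to 13.8%) for distal peaks of the DMSO list alone. The members also had the higher H3K4me1 enrichment, and its part in this difference was not tested.

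**Figure D2:**
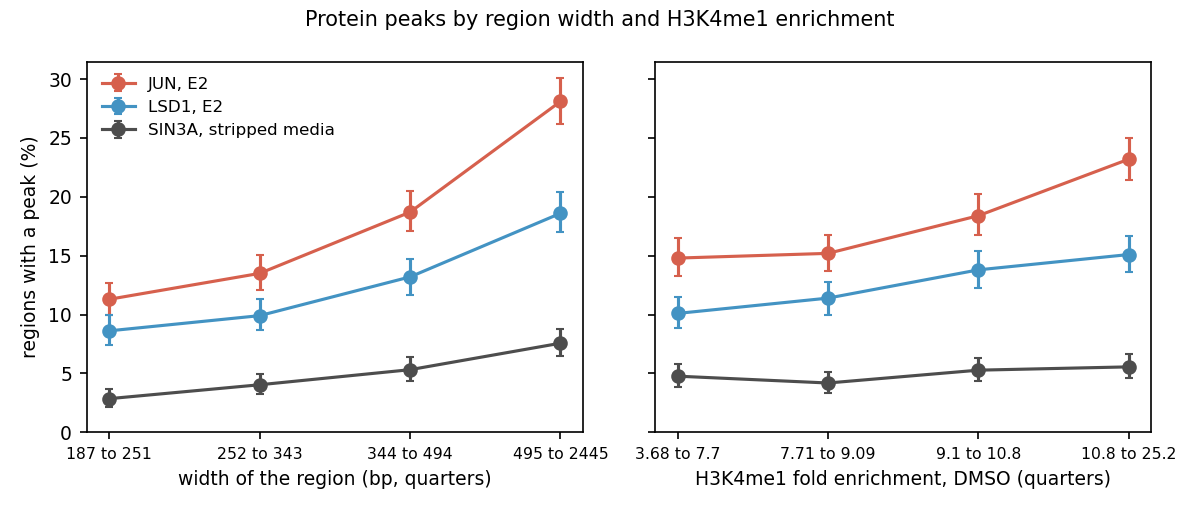
Share of Ishikawa-only distal H3K4me1 regions with a JUN, LSD1 or SIN3A peak (vertical axis, percent) in 4 classes of region width (left, bp) and of H3K4me1 fold enrichment with DMSO (right), each with about as many regions. Points are shares and bars exact 95% intervals. JUN with E2 climbs from 11.3 to 28.1% with width and from 14.8 to 23.2% with H3K4me1 enrichment.

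JUN was the protein found at the most regions, and mainly in the E2 list. JUN peaks overlapped 249 regions with DMSO (3.03%, interval 2.67 to 3.42%) and 1474 with E2 (17.9%, interval 17.1 to 18.8%). Over all distal peaks the shares were 2.56% and 14.4%. Both lists covered 244 regions, 5 were covered with DMSO alone and 1230, or 15% of regions, with E2 alone, beside 11.9% of all distal peaks. The number of regions was 5.92 times higher with E2, while the JUN list itself was 4.86 times longer, 18311 against 3768 peaks. When the E2 list was shortened to its 3768 strongest peaks, 429 regions held JUN, 1.72 times the DMSO number. More regions held JUN with E2 at full and at equal list length, by a smaller factor at equal length, and each treatment is a single library.

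The H3K4me1 change between treatments was about the same with and without JUN. The median log2 ratio of H3K4me1 enrichment, E2 over DMSO, was -0.05 at the 1230 regions with JUN in the E2 list alone and -0.05 at the 6741 regions without JUN. At the 244 regions with JUN in both lists it was -0.13. The median fold enrichment of JUN peaks with E2 was 12.3 at the 1391 at members against 8.92 at the 12154 at H3K4me3 of either line. Over all JUN peaks with E2 it was 9.59, and it was not computed for all distal JUN peaks. With DMSO the medians at members and at H3K4me3 were closer, at 11.9 and 11. Of the 6156 JUN peaks outside H3K4me3 with E2, 1189 (19.3%) lay at members.

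LSD1 came second. It was at 550 regions with DMSO (6.69%, interval 6.16 to 7.25%) and at 1035 with E2 (12.6%, interval 11.9 to 13.3%). Over all distal peaks these shares were 5.42% and 8.71%. Both LSD1 lists covered 295 regions, the DMSO list alone 255 and the E2 list alone 740 (9.0%, beside 6.17% of all distal peaks). Its number of regions was 1.88 times higher with E2, less than the 2.13-fold difference in list length. With lists of equal length the direction turned, with 550 regions for DMSO and 471 for E2. Regions with LSD1 in the E2 list alone were nearer to start sites, with a median of 14.0 kb, than regions with LSD1 in the DMSO list alone, with a median of 44.7 kb. Their median log2 ratio of H3K4me1, E2 over DMSO, was 0.02 and -0.12, again among regions kept for a peak in both treatments.

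SIN3A was at 407 regions in stripped medium (4.95%, interval 4.49 to 5.44%) and at 238 in full medium (2.90%, interval 2.54 to 3.28%). The background over all distal peaks was 3.64% and 2.17%. The stripped list was the longer, at 20625 against 16458 peaks, and at equal list length the numbers were 246 and 238. Most SIN3A peaks were at H3K4me3: only 7.39% of those in stripped medium lay outside it, the lowest share of the 10 Ishikawa lists of these proteins. Their median enrichment was 12.3 at members against 17.8 at H3K4me3.

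RARA and MAX were rare. RARA was at 1 region with DMSO (0.0122%, beside 0.00583% of all distal peaks) and at 71 with E2 (0.864%, interval 0.675 to 1.09%, beside 0.723%). Its DMSO list held 137 peaks and its E2 list 2883, and with 137 peaks in each the counts were 1 and 0. MAX was at 62 regions with DMSO (0.754%, beside 0.513%) and at 58 with E2 (0.706%, beside 0.501%). The MAX lists ran the other way in length, 3368 peaks with DMSO and 2002 with E2, and at equal length MAX was at 35 and 58 regions. For RARA the order of the treatments turned at equal list length, on counts of 1 and 0, and for MAX it also turned.

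**Figure D3:**
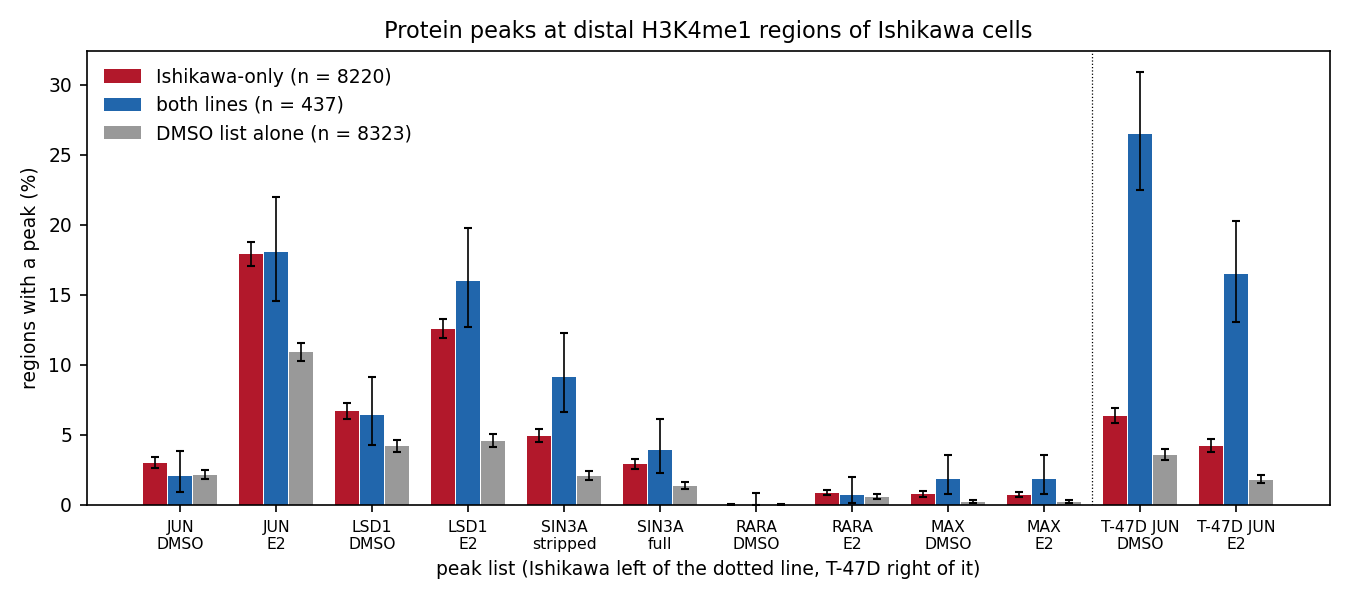
Share of regions with a peak (vertical axis, percent) in 10 Ishikawa protein lists and, right of the dotted line, in the T-47D JUN lists (horizontal axis). Red bars are the 8220 Ishikawa-only distal H3K4me1 regions, blue bars the 437 distal regions in both lines and grey bars the 8323 distal peaks of the Ishikawa DMSO list alone, with exact 95% intervals. JUN with E2 is at 17.9% of the Ishikawa-only regions and 18.1% of the regions in both lines, whereas T-47D JUN with DMSO is at 6.35 and 26.5%.

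The 5 proteins met at the same regions. LSD1 was at 54.8% (52.2 to 57.3%) of the 1479 regions with JUN and at 7.12% (6.52 to 7.76%) of the 6741 without. SIN3A was at 18.3% of regions with JUN and 3.49% of those without. Of the 71 regions with RARA 68 held JUN, 64 held LSD1 and 22 held SIN3A. MAX went with SIN3A more than with JUN in relative terms, at 11.7% of regions with SIN3A against 0.480% without, and at 3.85% of regions with JUN against 0.579% without. Region width enters all of these shares, because a wider region can hold more peaks.

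The 5 regions holding all 5 proteins were led by chromosome 15. That region (chr15:81605235-81605570), at an exon where STARD5 and IL16 are both annotated, had JUN fold enrichments of 21.1 with DMSO and 56.8 with E2 and LSD1 of 25.4 and 36.8. SIN3A there was at 15.2 and 10.9, RARA at 13.5 with E2 and MAX at 7.08 with DMSO. The second (chr22:39002126-39002509), in an intron of FAM227A, had JUN at 21.9 and 50.5, while LSD1 was lower with E2, 25.9 and 19.6. At the third (chr11:112192801-112193045), in a lncRNA intron 61.2 kb upstream of PLET1, JUN was at 12.0 and 37.3. The LIMA1 intron (chr12:50641036-50641342), printed above, had JUN at 10.1 and 38.7, and its H3K4me1 was at 16.6 with DMSO and 9.91 with E2. The fifth, near GRK3 (chr22:25884350-25884922), was weaker, with JUN at 8.27 and 17.8. JUN enrichment was higher with E2 at all 5, and LSD1 at 4 of the 5. Each of these regions held RARA in the E2 list alone, so they were chosen through an E2 list. Their E2 and DMSO values are therefore only a description.

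The highest single peak of each protein was picked by significance (−log10 q-value) in its E2 list, or for SIN3A in the stripped list. These regions were thus chosen through that condition, and their differences between conditions are only a description. The LSD1 peak near DDX1 (chr2:15782080-15782344) had a fold enrichment of 11.7 with DMSO and 55.4 with E2, beside a JUN peak of 60.8 in the E2 list alone. By this ranking the highest SIN3A and RARA peaks were at the same region, near SMAD6 (chr15:67176099-67176561). There SIN3A was at 48.9 in stripped and 25.7 in full medium, and RARA at 9.77 and 13.9. By fold enrichment other members were higher, up to 49.5 for SIN3A in stripped medium and 15.2 for RARA with E2. At the SMAD6 region JUN was high in both treatments, at 70.3 and 62.0, and LSD1 was at 28.8 and 32.1. This was the single member with RARA in the DMSO list. The highest MAX peak, in the PDGFB intron (chr22:39631055-39633010), was at 19.2 with DMSO and 18.2 with E2. So the top-ranked SIN3A and RARA region carried JUN in both treatments, whereas the top-ranked LSD1 region had JUN in the E2 list alone.

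Protein summits were concentrated on the regions, but not all at the same place within them. Around the 4507 regions at least 3 kb from H3K4me3, JUN summits with E2 numbered 277 per kb and 1000 regions within 250 bp of the centre, 198 between 250 and 500 bp, and 23.9 between 2 and 3 kb. LSD1 with E2 was likewise lower outward, at 193, 120.3 and 9.54. SIN3A was highest off the centre: 54.6 within 250 bp and 65.2 between 250 and 500 bp in stripped medium, and 35.9 and 54.6 in full medium. The SIN3A densities rest on 123 and 147 summits in stripped and on 81 and 123 in full medium. LSD1 with DMSO was nearly flat across that span, at 97.6 and 89.2, and so was JUN with DMSO, at 43.5 and 41.7. JUN and LSD1 with E2 were thus most frequent at the centre of H3K4me1. SIN3A was most frequent at its shoulders, more clearly in full medium.

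**Figure D4:**
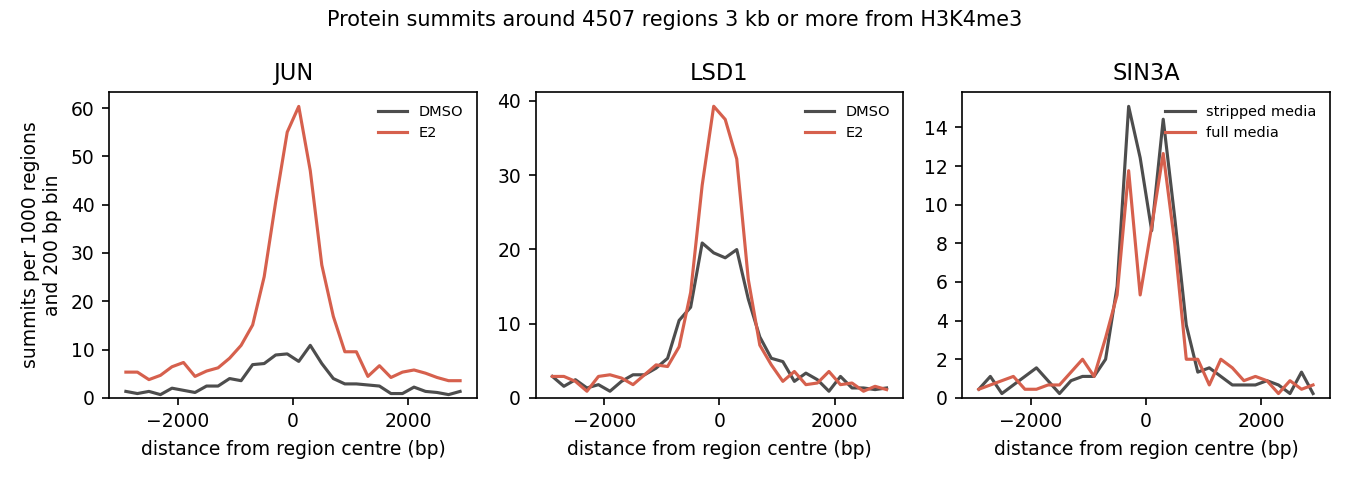
Number of JUN, LSD1 and SIN3A summits per 1000 regions in 200 bp bins (vertical axes, each with its own scale) against distance from the region centre in bp (horizontal axes), for the 4507 Ishikawa-only regions at least 3 kb from any H3K4me3 peak. Lines are single libraries, and the 2 colours are DMSO and E2, or for SIN3A stripped and full medium. JUN and LSD1 with E2 peak at the centre, and SIN3A has a maximum on each side of it.

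Gaps between neighbouring members also held summits. There were 1303 gaps of under 1 kb, of which 45 held H3K4me3. The other 1258 had a median length of 203 bp and 0.373 Mb in all. JUN summits with E2 numbered 340.4 per Mb in these gaps and 239.9 per Mb in the 2325 regions beside them. For LSD1 with DMSO they numbered 169 against 72.1 per Mb, and for SIN3A in full medium 85.8 against 31.9. The number of summits behind these densities was 127 for JUN, 63 for LSD1 and 32 for SIN3A in the gaps. JUN, LSD1 and SIN3A summits were therefore denser between paired regions than inside them.

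Regions close to H3K4me3 held JUN less often. JUN with E2 was at 19.1% (18.1 to 20.2%) of the 5745 regions 1 kb or more from H3K4me3 and at 15.1% (13.7 to 16.6%) of the 2475 closer ones. LSD1 with E2 was at 13.2% and 11.3%, with overlapping intervals, and MAX with E2 at 0.905% (0.677 to 1.19%) and 0.242% (0.0890 to 0.527%). SIN3A in stripped medium was at 4.66% and 5.62%, with overlapping intervals.

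Motifs were searched in 200 bp windows on both strands. At the H3K4me1 summits of members the AP-1 site TGACTCA was in 5.66% of windows (5.17 to 6.18%), in 5.68% of windows of all distal peaks and in 5.23% of all 28411 peaks. At JUN summits with E2 at members it was in 28.6% (26.2 to 31.1%) of 1391 windows, at a median of 32.0 bp from the summit, and at JUN summits with DMSO in 29.2% of 240. At JUN summits with E2 in H3K4me3 peaks, here of the Ishikawa lists only, it was in 9.87% of 11962. At JUN summits with E2 in all distal peaks it was in 29.2% of 2293, close to the members. JUN summits at members, like those at distal peaks in general, therefore held the AP-1 site more often than JUN summits in H3K4me3 peaks. The median GC content was 53.0% at members against 63.0% in H3K4me3 peaks, and the part of base composition in this was not tested. The related site TGACGTCA (CRE), which does not contain TGACTCA, ran the other way, at 0.575% and 2.41%.

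TEAD matches, CATTCC, were in 14.7% of the H3K4me1 windows, 24.4% (22.1 to 26.7%) of JUN windows with E2 and 34.2% (28.2 to 40.5%) of JUN windows with DMSO. LSD1 windows with E2 held the AP-1 site in 23.1% where the LSD1 peak overlapped a JUN peak and in 4.99% where it did not, the latter close to the H3K4me1 windows. E-boxes, CACGTG, which MAX dimers bind, were in 39.3% (27.1 to 52.7%) of 61 MAX windows with DMSO, 11.5% of SIN3A windows and 4.48% of H3K4me1 windows. AGGTCA, the core motif of RARA and of the estrogen receptor, was in 34.3% (23.3 to 46.6%) of 70 RARA windows with E2 and in 16.2% of H3K4me1 windows. The same RARA windows held the AP-1 site in 27.1% (17.2 to 39.1%) and TEAD in 32.9% (22.1 to 45.1%). In H3K4me1 windows these were in 5.66% and 14.7%, so the excess at RARA summits was not particular to AGGTCA. The full estrogen response element repeats the core of AGGTCA in mirror orientation around 3 bases. It was in 0 of 8220 H3K4me1 windows and 0 of 1391 JUN windows. Among H3K4me1 windows of all distal peaks it was likewise in 0 of 17162, and in 7 of the 28411 windows of the whole list. JUN, RARA and MAX windows thus held the AP-1, AGGTCA and E-box letters more often than the H3K4me1 windows did, and a match is not by itself a bound site.

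**Figure D5:**
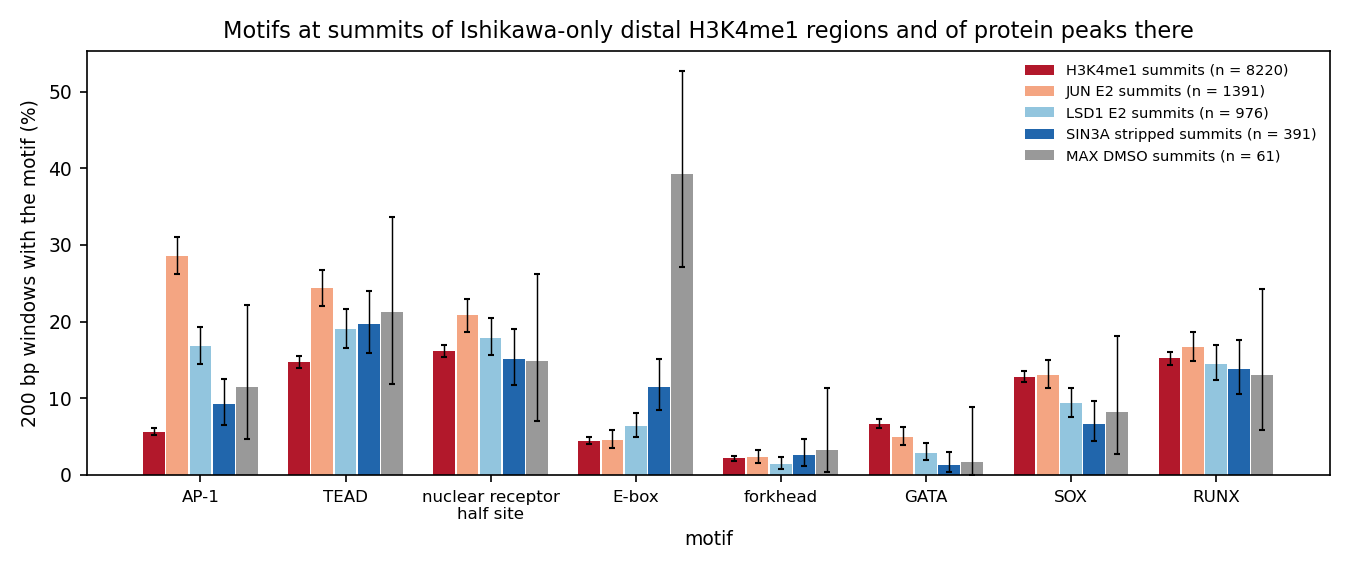
Share of 200 bp windows that hold a motif (vertical axis, percent) for 8 motifs (horizontal axis), at H3K4me1 summits of the Ishikawa-only regions and at summits of protein peaks overlapping them. Bars on the shares are exact 95% intervals, and the number of windows is given in the key. AP-1 is highest at JUN summits (28.6%) and the E-box at MAX summits (39.3%).

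In T-47D cells these regions were not empty of proteins, although they held no H3K4me1 peak there. T-47D JUN was at 522 regions with DMSO (6.35%, interval 5.83 to 6.90%) and at 348 with E2 (4.23%, interval 3.81 to 4.69%), beside 5.66% and 3.44% of all distal Ishikawa peaks. In the 437 regions of both lines it was at 26.5% (22.5 to 30.9%) and 16.5%. Members with Ishikawa JUN had T-47D JUN more often, at 14.5% (12.8 to 16.4%), than members without, at 5.90% (5.35 to 6.49%). The split was nearly the same over all distal peaks, at 14.0% and 5.21%. In the regions of both lines it was 50.6% and 24.6%. The T-47D JUN lists were longer than the Ishikawa ones, at 28703 and 24885 peaks. T-47D JUN windows at members held the AP-1 site in 9.76% (7.31 to 12.7%) of 502, less often than the Ishikawa JUN windows.

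RNA polymerase II in T-47D, the only target with replicates, was at 752 and 170 regions in the 2 DMSO libraries and at 774 and 205 in the 2 E2 libraries. These were 9.15, 2.07, 9.42 and 2.49% of members, beside 7.93, 2.21, 8.59 and 2.46% of all distal peaks. The libraries of a treatment differed more than those of the same replicate number, within which the E2 count was the higher, and no test of the treatment was made. Polymerase was in every library at 98 regions (1.19%), at 1.20% of all distal peaks and at 5.03% of the regions in both lines, and at 168 regions without the second DMSO library. Any T-47D list other than H3K4me1 and H3K4me3 covered 13.8% of members, 12.4% of all distal peaks and 46.7% of the regions in both lines. By both measures the members were close to distal peaks in general. The T-47D lists of MAX, TAF1 and SIN3A were at 0 members, and each was at no more than 2 of all 17162 distal peaks. That of LSD1 was at 0 members with DMSO and at 8 with E2 (0.0973%, beside 0.117% of all distal peaks). These lists held 42 peaks (LSD1 with DMSO) to 5645 peaks (TAF1 with E2).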

How the data were processed

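Peak lists of 45 libraries were used, of 49 samples; the others were inputs. Groups came from the sample labels. Per the methods of the study and the submitters' processing notes, the authors aligned reads to hg19 with Bowtie 1.1.2, keeping uniquely placed reads, and called peaks in each library with MACS2 2.1.0.20140616. The authors deposited for each peak fold enrichments (ratios of ChIP to background pileup), a −log10 p-value and a −log10 q-value, and a score. The study's methods name a q-value cutoff, yet no −log10 p-value deposited was under 10.0. The lists hold no read totals, so depth is unknown. Overlaps (1 bp), nearest start sites (GENCODE release 44 on GRCh37, protein-coding transcripts) and motifs were computed with Python 3.11.15, pandas 2.3.3, NumPy 2.4.6 and SciPy 1.17.1. On simulated data with known answers the rule, overlaps, nearest genes and planted motifs gave 0 errors.

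The regions and gene lists were chosen with earlier results of these data known. Named were the 5 regions with the highest lower enrichment of both treatments, the 10 genes nearest to the most regions and the 3 largest groups. Also named were the 5 regions with most proteins (ties by summed −log10 q-value) and up to 4 genes of each list with most regions. For each protein the region whose peak had the highest −log10 q-value was named, by its E2 list or, for SIN3A, the stripped list. TGFA was described singly. Part of what the rule picks is not reported here. Sequence in exons and on chromosome 8 was not printed. Peaks were compared across lists without scaling. No test was made, because every group but T-47D polymerase (2 libraries per treatment) was a single library.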

Additional observations from a re-analysis of the deposited data

Results flagged for a closer look

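At the 8220 Ishikawa-only regions the number with JUN moved in opposite directions in the 2 lines. In Ishikawa cells it was 249 with DMSO and 1474 with E2, a log2 ratio of 2.57, and in T-47D cells 522 and 348, a log2 ratio of -0.58. The lines differed by 3.15 on the log2 scale. The JUN lists moved the same way in length, by 2.28 in Ishikawa and -0.21 in T-47D on the log2 scale, and with Ishikawa lists of equal length the numbers were 249 and 429, a ratio of 1.72 instead of 5.92. With 1 library per line and treatment the difference itself was not tested.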

How the results depend on the processing

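No paired analysis was possible because no result came from a test. With Ishikawa H3K4me1 lists shortened to T-47D length, 134 regions were left, with JUN at 5.22% (DMSO) and 26.9% (E2), LSD1 at 9.70% and 20.9%, SIN3A in full medium at 4.48%, RARA with DMSO at 0% and MAX at 2.24% in both treatments. With every list limited to a −log10 q-value of at least 15, 5065 regions were left, with JUN with E2 at 21.0%, LSD1 at 7.70% and 14.3%, SIN3A in stripped medium at 6.44% and RARA with DMSO at 0%. Without the E2 list in the rule there were 16543 regions. Counting protein peaks within 500 bp gave JUN 7.82% and 33.3%, LSD1 15.9% and 23.5%, SIN3A 12.2% and 7.92%, RARA with E2 3.0% and MAX 2.07% and 2.31%. Equal protein list lengths gave JUN with E2 5.22%, LSD1 with E2 5.73%, SIN3A in stripped medium 2.99%, RARA with E2 0% and MAX with DMSO 0.426%. Leaving out regions within 1 kb of any start site left all 11 results within their counting intervals or 1.5 times the count. With each T-47D polymerase library left out in turn, a peak in all remaining libraries was at 1.20 to 2.04% of regions.

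Among alternatives chosen after seeing the data, leaving out regions within 1 kb of H3K4me3 gave 5745 regions with JUN with E2 at 19.1% and RARA with DMSO at 0%. Windows of 500 bp gave JUN with E2 19.5%, LSD1 7.40% and 13.5% and SIN3A 5.61% and 3.38%. The cause of these shifts was not tested. Depth is unknown, so absence from a list is not absence of the mark or protein.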

Other observations

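Members were unevenly spread over chromosomes. They were densest on chromosome 17, at 5.89 per Mb, chromosome 22, at 5.23, and chromosome 12, at 4.84, and sparse on chromosome 13, at 1.34. As shares of the distal peaks there they were 55.1, 56.9, 50.3 and 44.4%, which varied far less than the densities. Chromosome X held 4 members, 0.0258 per Mb, and they were 11.1% of its 36 distal peaks, against 47.9% of distal peaks over all chromosomes. The Ishikawa H3K4me1 lists had few X peaks in all, 0.172% of peaks with DMSO and 0.0754% with E2, and so had the T-47D H3K4me1 lists, 0.437% and 0.102%. The Ishikawa H3K4me3 lists had 2.71% and 2.70% and the Ishikawa JUN list with E2 had 0.994%.

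TAF1, a subunit of the general transcription factor TFIID, was at 430 members with DMSO (5.23%, interval 4.76 to 5.73%) and at 203 with E2 (2.47%, interval 2.14 to 2.83%), a ratio of 0.472, while the list lengths differed by a ratio of 0.856. Over all distal peaks the shares were 3.68% and 1.67% and the ratio 0.453. H3K27me3, the Polycomb mark, was at 74 members with DMSO and 52 with E2, although its E2 list was 3.18 times longer. These were 0.900% and 0.633% of members, beside 0.612% and 0.355% of all distal peaks, where the E2 number was also the lower. H3K36me3 and MYC were at 0 of the 8220 members in Ishikawa cells (exact interval up to 0.0449%), from lists of 114 peaks for H3K36me3 and of 61 and 2 for MYC.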
